A study of Sus scrofa with 30 samples.

Results

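The 4 solute carrier families SLC2A, SLC5A, SLC16A and SLC25A were followed gene by gene in single pig embryos. Of 85 annotated pig genes whose symbol belongs to one of these families, 64 were among the 13103 genes of the read count table for all embryos, and these 64 are described here; the other 21 were not analysed here. They comprise 9 of 14 SLC2A genes, 5 of 12 SLC5A genes, 10 of 14 SLC16A genes and 40 of 45 SLC25A genes. One of the 9, SLC2A4RG, carries the family symbol but encodes a regulator of transcription, so 63 are carriers.

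Carriers of the SLC2A family (glucose transporters, GLUT) let sugars and polyols cross membranes down their gradient, and those of the SLC5A family couple uptake to sodium. The SLC16A family includes the monocarboxylate transporters (MCT), some of which move lactate and pyruvate together with a proton, whereas SLC25A carriers sit mostly in the inner mitochondrial membrane and exchange ADP, ATP, phosphate, carboxylates, amino acids and cofactors. In the days before implantation the pig conceptus grows from a sphere to a long filament inside a uterine fluid that holds glucose, fructose and lactate.

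The 30 embryos were flushed from German Landrace × Pietrain gilts inseminated with sperm of 1 Pietrain boar, with 4 gilts slaughtered on each of Days 8, 10 and 12 after insemination. All gilts had been cycle synchronized with altrenogest and then given the gonadotropins PMSG and hCG before insemination, and no further treatment is described. Each day is represented by 5 female and 5 male embryos, sexed from their own DNA. Every library was made from the mRNA of 1 whole embryo, embryonic disc and trophectoderm together, so a level is an average over cell types. Some embryos of a day share a mother and all share a sire, the mother of each embryo is not given in the labels, and p-values therefore measure the spread between embryos and not between litters.

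Total counts per embryo ran from 6068212 to 34002508, with the smallest library in the Day 12 female d12_f_245. That embryo had the lowest mean correlation with the others of its day (0.90 over all genes) and was the lowest or the highest of its day for 33 of the 64 genes. Comparisons of days whose call changes without it are therefore given both ways. Fits of a single sex and tests of how a sex difference changed were not rerun without it. Trophectoderm markers (CDX2, GATA3, TFAP2C, KRT8, KRT18, CYP19A1) were all measured, with CYP19A1 at a median of 0 on Day 8. Their summed level in CPM (counts scaled to a common library size with TMM factors) was 20101 to 24801 on Day 8, 36447 to 51134 on Day 10, then 8319.5 to 25979 on Day 12. KRT8 and KRT18 make up nearly all of that sum, and GATA3 had its highest median on Day 12 (138, 128.9 and 244.9 CPM). The summed level of 4 epiblast markers (POU5F1, NANOG, SOX2, LIN28B) was between 27.7 and 47.6 CPM on Day 8, 15.0 and 27.5 on Day 10, and 2.26 and 5.24 on Day 12, where SOX2 had a median of 0. POU5F1 had medians of 31.5, 13.7 and 1.54 CPM, whereas LIN28B was lowest on Day 8, with medians of 0.901, 3.08 and 2.27 CPM. Hypoblast markers summed to between 265 and 380.2, 135 and 176, and 132 and 1164 CPM on the 3 days, where PDGFRA reached 909.9 CPM on Day 12 and GATA6 had medians of 139, 57.1 and 43.9 CPM. Unlike GATA6, GATA4 (36.6, 21.6 and 70.4 CPM) and SOX17 (23.8, 23.0 and 42.7 CPM) had their highest medians on Day 12. The part of all these markers in the differences between days was not tested, and fewer cells of a type cannot be told apart from less RNA per cell. Of 11 markers of endometrium, blood and endothelium, 6 were not analysed here. The 2 blood markers HBB and ALAS2 together reached at most 10.6 CPM, the 2 endometrial markers ESR1 and FOXA2 at most 29.8 CPM, and the endothelial marker PECAM1 188 CPM, each on Day 12.

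A carrier was called between days at an adjusted p under 0.001 and a log2 fold change beyond 1 (edgeR quasi-likelihood F test, Benjamini-Hochberg over 13103 genes). From Day 8 to Day 10, 11 of the 64 genes rose, against a background of 9.88% of all genes, and 4 fell, against 4.20%. From Day 10 to Day 12, 10 rose (background 14.9%) and 15 fell (background 8.39%), or 25 together (background 23.3%). Between Days 8 and 12 directly, 13 were higher (background 22.0%) and 10 lower (background 10.4%). Both intervals share the Day 10 embryos, so their changes are not independent of each other. The median log2 fold change of the 64 genes was 0.12 in the first interval and -0.05 in the second, beside 0.03 and 0.04 over all genes. No overlap between the levels of both days was found for 15 genes in the first interval (background 22.0%), for 17 in the second (background 16.6%) and for 22 over the whole span (background 31.7%).

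The deposited tables were filtered on low levels, and a gene kept through 1 day alone is bound to stand higher there. Among the carriers described below, SLC16A3, SLC16A8, SLC2A11 and SLC5A8 are in the authors' table of Day 12 and in neither table of the other days, SLC25A47 is in that of Day 8 alone, SLC5A5 is missing from that of Day 8, SLC25A21 from that of Day 10 and SLC25A35 from that of Day 12. For these genes the filter had favoured the direction of a difference from the days it left out, and their tests carry that limit. Enzymes, accessory proteins and other partners of the carriers, named below, were not checked in this way.

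Scaling by library size alone shifted the median of all genes to -0.15 and 0.24. It changed the calls of the 64 genes to 10 higher and 4 lower in the first interval and to 11 higher and 12 lower in the second. Over all 13103 genes the same scaling called 1027 higher and 811 lower in the first interval and 2396 higher and 891 lower in the second.

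Among the glucose carriers, SLC2A3 (GLUT3, a high-affinity glucose transporter) was the one called higher on Day 12 than on Day 10, while SLC2A1 (GLUT1, the transporter of basal uptake) was not called in any comparison. The lowest, median and highest levels of SLC2A3 (chromosome 5, 62963635 to 63041955, Sscrofa11.1) were 520.1, 632 and 986 CPM on Day 8. On Day 10 they were 821, 952 and 1024 CPM, and on Day 12 they were 917, 1813 and 3246 CPM. On Day 10 all 10 embryos lay close together, and on Day 12 all but d12_f_271 were above the highest Day 10 embryo. SLC2A3 rose by a log2 fold change of 1.04 ± 0.15 (SE) from Day 10 to Day 12, a 2.06-fold change (edgeR quasi-likelihood, adjusted p = 4.56e-07). The difference between Days 8 and 10 was 0.49 ± 0.15 (adjusted p = 0.00540), which is not a call. The second value sits just past the fold threshold: it was 0.98 without d12_f_297 and 0.93 without d12_m_275, 0.98 with the robust GLM of the study and 0.87 in female embryos only, all under 1.

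SLC2A1 (chromosome 6, 168535398 to 168561170) had medians of 320.2, 373 and 392 CPM on Days 8, 10 and 12, with highest levels of 380.0, 458 and 552. The 3 days overlapped throughout, and the log2 fold changes were 0.22 ± 0.13 (adjusted p = 0.163) and 0.05 ± 0.13 (adjusted p = 0.775). In the gene table ZNF691 shares 20710 bases with the span of SLC2A1, and reads there could have been counted for either gene.

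SLC2A12 (GLUT12, a further glucose transporter) had the largest log2 fold change of the SLC2A family. Its levels were 2.20, 5.18 and 6.91 CPM (lowest, median, highest) on Day 8 and 18.7, 27.1 and 89.0 CPM on Day 10, without overlap. It rose 7.73-fold (log2 2.95 ± 0.26, adjusted p = 1.23e-10). On Day 12 it lay between 9.64 and 21.2 CPM with a median of 13.4, lower than on Day 10 by a factor of 2.62 (log2 -1.39 ± 0.25, adjusted p = 1.55e-05), with some overlap, and still 2.95-fold above Day 8 (adjusted p = 2.59e-06). The Day 10 spread came from d10_m_453 at 89.0, d10_m_333 at 64.0 and d10_f_454 at 47.8 CPM, while no other embryo of that day exceeded 31.9 CPM. TBPL1 shares 2041 bases with the span of SLC2A12, and reads there could have been counted for either gene.

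SLC2A2 (GLUT2, the low-affinity transporter of liver and pancreatic beta cells), which was chosen after its values were seen, had medians of 5.68, 6.88 and 15.6 CPM. Its range widened from 3.15 to 8.29 CPM on Day 8 to 2.46 to 38.0 CPM on Day 12, with d12_f_245 lowest and d12_m_307 highest. The change from Day 10 to Day 12 missed the threshold (log2 1.31 ± 0.38, adjusted p = 0.00404) and passed it without d12_f_245 (1.44, adjusted p = 9.57e-04). The change from Day 8 to Day 12 passed it (log2 1.66 ± 0.39, adjusted p = 3.39e-04) and no longer did without d12_m_249 (1.47) or without d12_m_307 (1.46). In female embryos only it was 0.44 and not called, and the Day 12 means were 10.4 CPM in females and 26.3 CPM in males. The change of the sex difference from Day 8 to Day 12 was -2.01 (unadjusted p = 0.00779, adjusted p = 0.132 from the edgeR fit). SLC5A1 (SGLT1, the sodium-driven glucose transporter) had medians of 4.52, 4.99 and 3.28 CPM, and no change of it was called.

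The fructose carrier SLC2A5 (GLUT5, which takes up fructose in the small intestine) rose and then fell. Its levels (chromosome 6, 69507829 to 69535794; lowest, median, highest) were 98.4, 139.9 and 168 CPM on Day 8, and 27.6, 39.3 and 212 on Day 12. On Day 10 the median was 379 and the highest level 558 CPM, with 314 CPM second to lowest. No Day 10 embryo overlapped with either of the other days. SLC2A5 rose 2.89-fold from Day 8 to Day 10 (log2 1.53 ± 0.27, adjusted p = 2.35e-05) and then fell by a factor of 5.86 (log2 -2.55 ± 0.28, adjusted p = 4.12e-09). Day 12 embryos were uneven: d12_f_289 stood at 212 CPM and the next at 123.6 CPM, against the median of 39.3. Day 12 against Day 8 gave -1.02 ± 0.27 (adjusted p = 0.00131), which is not a call.

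SLC2A8 (GLUT8, an intracellular hexose transporter) was called in the second interval and not in the first. Its medians were 46.5, 70.3 and 18.6 CPM, with ranges of 31.4 to 57.2, 47.5 to 152 and 12.0 to 42.7. The fall from Day 10 to Day 12 was 4.06-fold without overlap (log2 -2.02 ± 0.21, adjusted p = 1.45e-09), and the preceding change was 0.93 ± 0.21 (adjusted p = 3.35e-04). SLC2A11 (GLUT11, a carrier of glucose and fructose), the last of the 3 hexose carriers in this list, stayed between 0.129 and 1.30 CPM, with no call.

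SLC2A13, the proton-coupled myo-inositol transporter HMIT, had medians of 41.1, 95.0 and 42.9 CPM. Its Day 10 range of 81.2 to 175 CPM lay above every embryo of Day 8 (38.5 to 67.7) and of Day 12 (15.5 to 76.6). It rose 2.48-fold (log2 1.31 ± 0.20, adjusted p = 2.10e-06) and fell by a factor of 2.62 (log2 -1.39 ± 0.20, adjusted p = 4.82e-07). The sodium-coupled inositol transporter SLC5A3 had medians of 19.1, 13.5 and 11.5 CPM and was not called in either interval, and its span shares 34692 bases with that of MRPS6.

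**Figure D1:**
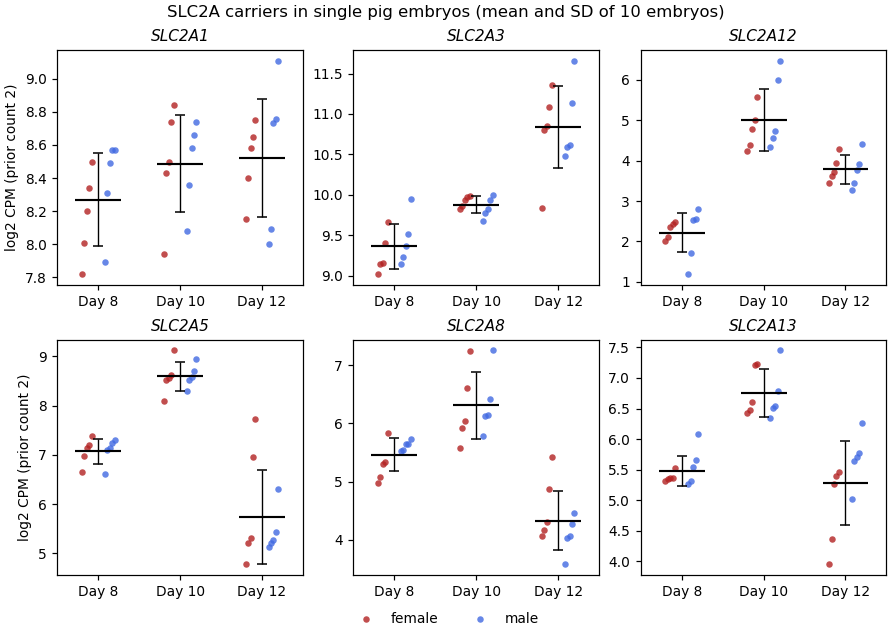
Level of 6 SLC2A carriers in each embryo on Days 8, 10 and 12, as log2 CPM with a prior count of 2 on the vertical axis (a log axis). Red points are female and blue points male embryos, and black lines give the mean and SD of the 10 embryos of a day. SLC2A12, SLC2A5 and SLC2A13 stand highest on Day 10 without overlap with Day 8, SLC2A3 is highest on Day 12, and the days of SLC2A1 overlap.

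Genes that act on the carried sugars were read from a separate list of 22 gene identifiers for enzymes, accessory proteins and other partners of these carriers. Of these, 2 rose (9.09%, background 9.88%) and 1 fell (4.55%, background 4.20%) from Day 8 to Day 10, close to the share of all genes. From Day 10 to Day 12, 5 were called, each of them higher (22.7%, background 14.9%). The authors' filter was not checked for these genes, so rises favoured in advance could be among them. HK1, hexokinase 1, which phosphorylates glucose after entry, had medians of 157, 130.1 and 328 CPM and rose 2.53-fold on Day 12 (adjusted p = 3.59e-09). TXNIP, which promotes the removal of glucose transporters from the cell surface, fell from between 17.6 and 46.0 CPM on Day 8 to between 1.02 and 12.8 CPM on Day 10 without overlap (log2 -2.55 ± 0.38, adjusted p = 1.23e-06). Of the polyol route from glucose to fructose, AKR1B1 (aldose reductase) was called higher on Day 12 than on Day 8 (log2 1.11 ± 0.20, adjusted p = 1.51e-05). That call was lost without d12_m_276 (0.87). SORD (sorbitol dehydrogenase) had medians of 50.5, 44.4 and 56.6 CPM without a call, and KHK (ketohexokinase, the first enzyme of fructose breakdown) medians of 0.620, 1.01 and 0.704 CPM, also without one. HK2 was not called either.

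All 4 lactate and monocarboxylate carriers of the list that were measured (SLC16A1, SLC16A3, SLC16A8 and SLC5A8) were called higher on Day 12 than on Day 10 (background 14.9%), and none was called from Day 8 to Day 10. For SLC16A3, SLC16A8 and SLC5A8, which the authors' filter kept through Day 12 alone, that direction was favoured in advance, and SLC16A1 is the only one of the 4 in the tables of all 3 days. SLC16A1 (MCT1, the widespread carrier of lactate and pyruvate; chromosome 4, 107510920 to 107547609) had 94.8, 111.2 and 218 CPM on Day 8, 87.9, 193 and 326 on Day 10, and 343, 444 and 723 on Day 12 (lowest, median, highest). Every Day 12 embryo lay above every earlier one. The change was 0.68 ± 0.19 (adjusted p = 0.00312), which was not called, in the first interval and 1.19 ± 0.19 (2.29-fold, adjusted p = 3.34e-06) in the second.

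SLC16A3 (MCT4, the lactate exporter of glycolytic cells) was near the detection limit and in the table of Day 12 alone. Its levels were 0.158, 0.411 and 0.905 CPM on Day 8, 0.0913, 0.154 and 0.364 on Day 10, and 0.123, 0.740 and 3.77 on Day 12 (lowest, median, highest). On Day 10, 5 of the 10 embryos had 3 counts or fewer. The fitted rise on Day 12 was 5.47-fold (log2 2.45 ± 0.48, adjusted p = 4.96e-05), and the overlap lay in the male embryos d12_m_275 and d12_m_276 at 0.204 and 0.123 CPM. In male embryos only the log2 change was 1.23 and not called.

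SLC16A8 (MCT3, a lactate carrier known from the retinal pigment epithelium) was at or under 0.582 CPM in every embryo of Days 8 and 10 and between 0.658 and 5.64 CPM on Day 12. The days did not overlap, as the filter favours for a gene kept through Day 12 alone, and the fitted difference was 6.77-fold (log2 2.76 ± 0.46, adjusted p = 4.95e-06). SLC5A8 (SMCT1, the sodium-coupled carrier of short monocarboxylates) had 3 counts or fewer in all 20 embryos of Days 8 and 10 and also in 4 embryos of Day 12. The other 6 Day 12 embryos ran up to 2.85 CPM and, in d12_f_297, 5.69 CPM. Against the floor of 3 counts per library on Day 10 (0.170 CPM), its Day 12 mean of 1.26 CPM was at least 7.44-fold higher, or at least 4.54-fold without d12_f_297, and the test called it (adjusted p = 5.84e-07).

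Proteins and enzymes that work with these carriers were also measured. EMB (embigin, an accessory protein that brings monocarboxylate carriers to the cell surface) was at 0.976 CPM or less in all embryos of Days 8 and 10 and between 1.93 and 19.1 CPM on Day 12 (24.5-fold, log2 4.61 ± 0.45, adjusted p = 2.47e-10). EMB had 3 counts or fewer in 3 of 10 embryos on Day 10. Whether the authors' filter kept it through Day 12 alone, which would favour this direction in advance, was not checked. BSG (basigin, the accessory protein of MCT1 and MCT4) had medians of 442, 444 and 477 CPM and no call, as did NPTN. LDHA (lactate dehydrogenase A) had medians of 101, 149 and 307.5 CPM and rose 2.16-fold on Day 12 (log2 1.11 ± 0.16, adjusted p = 4.40e-07), a call lost without d12_f_289 (0.95). LDHB had medians of 737, 533 and 839.9 CPM, with log2 changes of -0.45 and 0.65 that were under the fold threshold. Subunits of the mitochondrial pyruvate carrier were not called in either interval: MPC1 had medians of 72.2, 75.2 and 58.6 CPM and MPC2 of 38.6, 48.0 and 68.9 CPM.

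The other SLC16A genes carry substrates other than lactate or have no settled one, and 3 of 7 rose (background 9.88%) and 1 fell (background 4.20%) from Day 8 to Day 10. SLC16A9 (MCT9, reported to move carnitine and creatine; chromosome 14, 63026661 to 63109137) went from 32.6, 45.9 and 85.9 CPM on Day 8 to 249.3, 357 and 459 on Day 10 and 141, 367 and 438 on Day 12. It rose 6.61-fold without overlap (log2 2.72 ± 0.19, adjusted p = 5.90e-13), and the next interval gave -0.08 ± 0.18 (adjusted p = 0.735). SLC16A10 (TAT1, an aromatic amino acid carrier) took the same course, from 21.3, 24.8 and 33.9 CPM to 60.4, 108.7 and 223 CPM and then 50.1, 120.1 and 141 CPM. It rose 4.76-fold without overlap (log2 2.25 ± 0.20, adjusted p = 8.39e-11). Both Day 12 minima belong to d12_f_245.

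SLC16A11 (MCT11, a carrier tied to lipid metabolism) was high on Day 10 alone, at 7.63, 13.4 and 21.2 CPM, against 1.93, 2.85 and 4.27 on Day 8 and 0.942, 1.42 and 6.22 on Day 12. The rise was 4.61-fold (log2 2.20 ± 0.28, adjusted p = 1.19e-07) and the fall 6.50-fold (log2 -2.70 ± 0.29, adjusted p = 2.25e-09), both without overlap. The whole 4113-base span of SLC16A13 lies inside that of SLC16A11 on chromosome 12, so reads of these neighbours may be shared, although SLC16A13 itself had medians of 12.1, 12.2 and 22.2 CPM and no call.

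SLC16A5 (MCT6) fell at both steps. It had 28.4, 32.1 and 41.3 CPM on Day 8, 5.25, 15.0 and 23.2 on Day 10 and 1.11, 2.95 and 5.11 on Day 12, with no overlap between any of the days. The falls were 2.22-fold (log2 -1.15 ± 0.23, adjusted p = 1.12e-04) and 5.25-fold (log2 -2.39 ± 0.25, adjusted p = 1.13e-09), or 11.6-fold in all (adjusted p = 2.51e-13). SLC16A14, an orphan of the family, rose 3.30-fold from Day 10 to Day 12 (log2 1.72 ± 0.35, adjusted p = 8.53e-05) from a median of 0.966 to one of 3.08 CPM, with overlap.

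SLC16A6 (MCT7, linked to ketone body export in the liver), also chosen after its values were seen, split the Day 10 embryos. In 8 of them it lay between 1.92 and 6.25 CPM, whereas d10_f_454 stood at 26.8 and d10_m_453 at 38.0 CPM. Neither interval was called by the quasi-likelihood test (log2 -0.81 ± 0.50, adjusted p = 0.172, and -0.56 ± 0.51, adjusted p = 0.357), whereas the robust GLM of the study called the first one lower (log2 -1.94, adjusted p = 8.01e-07). The second value was 0.07 without d10_m_453. ARSG, which is not among the 13103 genes, shares 17486 bases with SLC16A6, its whole span, so reads of ARSG could be part of these values.

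Of the remaining sodium carriers, SLC5A5 (NIS, the sodium iodide symporter of the thyroid; chromosome 2, 59869157 to 59885086) had the largest rise of the 64 genes in each interval, SLC5A8 left aside. Its lowest, median and highest levels were 0.186, 0.300 and 0.572 CPM on Day 8, 1.02, 1.86 and 8.39 on Day 10, and 12.2, 22.1 and 45.0 on Day 12. No 2 days overlapped. The rises were 8.24-fold (log2 3.04 ± 0.38, adjusted p = 6.31e-08) and 8.38-fold (log2 3.07 ± 0.33, adjusted p = 1.66e-09), together 69.1-fold (adjusted p = 1.76e-14). The authors' filter left SLC5A5 out on Day 8, so the first rise and that over both intervals were favoured in advance. The 2 highest Day 10 embryos were d10_f_454 at 8.39 and d10_m_453, and the next stood at 2.32. SLC5A6 (SMVT, the carrier of biotin and pantothenate) had medians of 64.4, 52.2 and 48.3 CPM and no call. PDZK1IP1 (MAP17, a partner protein of sodium glucose carriers) rose 7.81-fold and then 4.74-fold, with medians of 0.282, 1.89 and 10.8 CPM (adjusted p = 2.57e-08 and 1.61e-07).

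**Figure D2:**
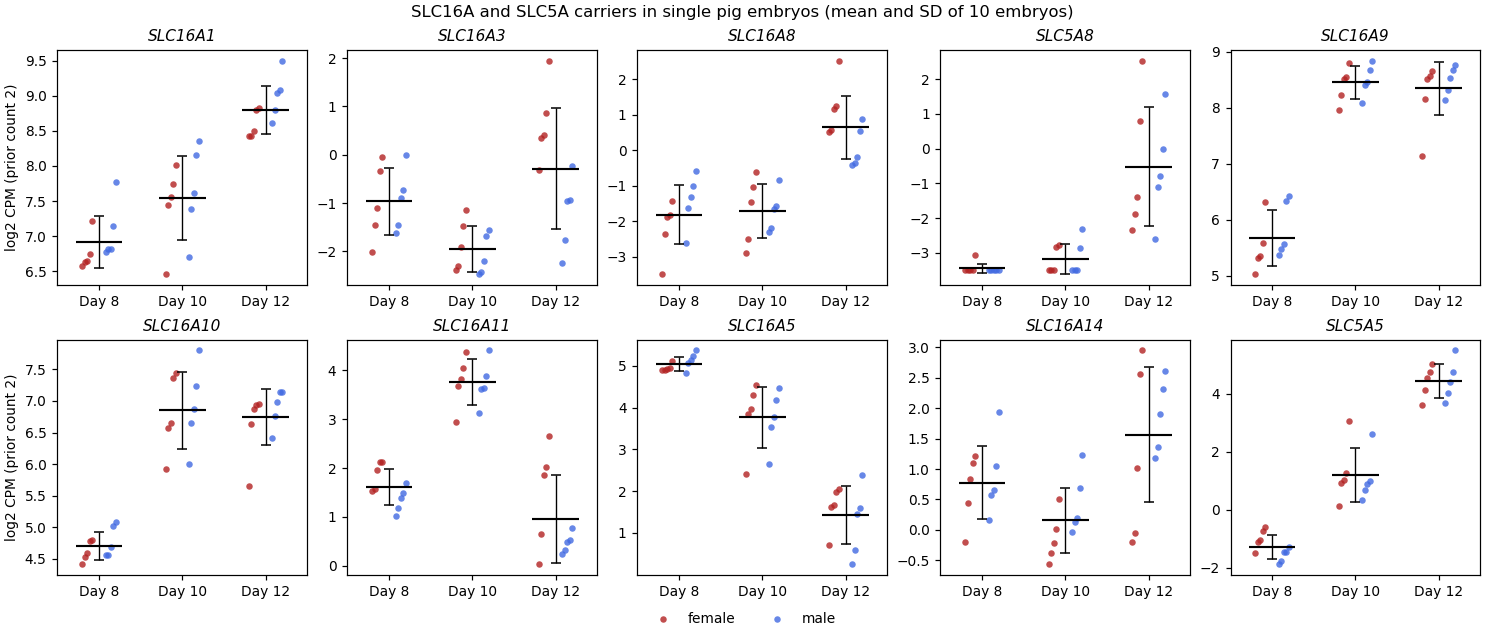
Level of 8 SLC16A and 2 SLC5A carriers in each embryo by day, as log2 CPM with a prior count of 2 on the vertical axis (a log axis). Red points are female and blue points male embryos, and black lines give the mean and SD of 10 embryos. The upper row holds the 4 carriers of lactate and other monocarboxylates, all highest on Day 12, and SLC16A9; the points of SLC5A8 on Days 8 and 10 rest on 3 counts or fewer.

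The 40 mitochondrial carriers (SLC25A; a few members sit in other membranes) were mostly under the thresholds, with 4 rises (10.0%, background 9.88%) and 3 falls (7.50%, background 4.20%) from Day 8 to Day 10. From Day 10 to Day 12 there were 3 rises (7.50%, background 14.9%) and 9 falls (22.5%, background 8.39%). Their median log2 fold change was 0.04 and then -0.05.

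All 4 carriers of ADP, ATP and phosphate stayed under the fold threshold in every comparison of days. SLC25A3 (the phosphate carrier) had 1605, 1706 and 1904 CPM on Day 8, 2453, 3180.2 and 3588 on Day 10, and 1588, 1846 and 3325 on Day 12. Days 8 and 10 did not overlap, and the log2 change was 0.83 ± 0.10 (adjusted p = 3.81e-08), which is under the fold threshold although past the adjusted p, and then -0.63 ± 0.10 (adjusted p = 1.97e-06). The 3325 CPM belonged to d12_f_271, and the next highest Day 12 embryo was at 2094.

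The ADP/ATP exchangers SLC25A4, SLC25A5 and SLC25A6 (ANT1, ANT2 and ANT3) are alike in sequence, so their reads may be shared. SLC25A5 had medians of 580.3, 684 and 416 CPM and SLC25A6 of 2945, 3482 and 2303 CPM, and for both the Day 12 embryos lay below all Day 10 embryos (log2 -0.80 ± 0.10, adjusted p = 3.34e-08, and -0.64 ± 0.094, adjusted p = 6.59e-07). SLC25A4 had medians of 24.7, 34.6 and 39.8 CPM and log2 changes of 0.53 ± 0.10 (adjusted p = 4.37e-05) and 0.16 ± 0.10 (adjusted p = 0.156). In female embryos alone SLC25A5 passed the fold threshold in the second interval, at -1.10. That fit includes d12_f_245, the lowest Day 12 embryo for SLC25A5 at 266 CPM, and was not rerun without it.

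The carnitine and acylcarnitine carrier SLC25A20, which brings fatty acids into the mitochondrion for oxidation, rose on Day 12. It had 46.7, 50.4 and 64.8 CPM on Day 8, 28.0, 32.0 and 48.3 on Day 10 and 56.1, 118 and 179 on Day 12, so that no Day 12 embryo overlapped with Day 10. The changes were -0.60 ± 0.16 (adjusted p = 0.00179), not called, and 1.84 ± 0.16 (3.58-fold, adjusted p = 2.60e-11). On Day 10 the highest value, 48.3 CPM, was that of d10_f_433.

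SLC25A22 (a mitochondrial glutamate carrier; chromosome 2, 491288 to 498773) fell 2.82-fold from Day 8 to Day 10. Its values were 151, 179 and 210.0 CPM, 37.5, 67.5 and 83.0 CPM, and 37.6, 67.3 and 92.2 CPM on the 3 days. All Day 8 embryos lay above all later ones (SE of the log2 change 0.15, adjusted p = 1.87e-09), and the second change was 0.01 ± 0.15 (adjusted p = 0.941). The other amino acid carriers SLC25A15, SLC25A29, SLC25A38 and SLC25A44 were not called.

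Among carriers of di- and tricarboxylates and aspartate, 2 of 6 rose on Day 12 (background 14.9%). SLC25A12 (aralar, the aspartate and glutamate exchanger of the malate-aspartate shuttle) had medians of 13.9, 11.9 and 27.9 CPM and rose 2.37-fold (log2 1.24 ± 0.17, adjusted p = 1.46e-07), with slight overlap. SLC25A21 (the oxodicarboxylate carrier) had 1.11, 1.62 and 2.65 CPM on Day 8, 0.356, 0.606 and 0.867 on Day 10 and 0.696, 2.57 and 3.98 on Day 12. It fell 2.79-fold without overlap (log2 -1.48 ± 0.28, adjusted p = 4.44e-05) and then rose 3.94-fold (log2 1.98 ± 0.28, adjusted p = 3.59e-07). The authors' filter left SLC25A21 out on Day 10, so its fall, and its rise counted above, were favoured in advance. SLC25A13 (citrin, which does the same exchange as aralar) had medians of 134, 140.5 and 151 CPM, and SLC25A1 (citrate), SLC25A10 and SLC25A11 were not called either.

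Of 11 carriers of nucleotides and cofactors, 5 were called from Day 10 to Day 12, each of them lower (45.5%, background 8.39%). SLC25A51 (the mitochondrial NAD carrier) had medians of 61.1, 59.6 and 19.5 CPM, and all its Day 12 embryos, the lowest at 9.11 CPM, lay below both earlier days (3.13-fold, log2 -1.65 ± 0.14, adjusted p = 7.75e-12). SLC25A32 (the folate or FAD carrier) had medians of 13.8, 13.0 and 5.18 CPM and fell 2.31-fold (log2 -1.20 ± 0.18, adjusted p = 6.67e-07), with slight overlap.

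SLC25A42 (the coenzyme A carrier) rose before it fell, with 1.70, 2.27 and 3.12 CPM on Day 8, 3.45, 6.05 and 8.18 on Day 10 and 1.60, 2.77 and 4.77 on Day 12. The changes were 1.29 ± 0.18 (2.45-fold, adjusted p = 4.26e-07) and -1.08 ± 0.18 (2.11-fold lower, adjusted p = 4.48e-06), the latter under the fold threshold with library size alone (-0.85). The remaining falls were those of SLC25A33 (a pyrimidine nucleotide carrier, medians 114, 75.8 and 35.0 CPM, log2 -1.04 ± 0.11) and SLC25A16 (linked to coenzyme A, medians 36.9, 35.6 and 18.2 CPM, log2 -1.02 ± 0.13). Both sit at the fold threshold. SLC25A33 was at -0.99 without d12_f_245 and also without d12_m_275, and SLC25A16 between -0.99 and -0.93 without d12_f_245, d12_f_271 or d12_f_289.

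Both mitoferrins, the iron importers of the mitochondrion, had their highest median on Day 10. SLC25A37 (mitoferrin 1) had 18.2, 20.6 and 29.6 CPM, 29.2, 51.7 and 74.1 CPM, and 14.2, 18.3 and 42.0 CPM on the 3 days. It rose 2.44-fold (log2 1.29 ± 0.16, adjusted p = 9.33e-08) and fell 2.53-fold (log2 -1.34 ± 0.16, adjusted p = 2.59e-08), and the overlap in each interval came from the single high embryos d08_m_103 at 29.6 and d12_f_245 at 42.0 CPM together with low Day 10 embryos. SLC25A28 (mitoferrin 2) had medians of 14.7, 26.9 and 10.7 CPM and log2 changes of 0.84 ± 0.17 (adjusted p = 9.99e-05) and -0.96 ± 0.17 (adjusted p = 1.23e-05), both under the fold threshold.

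The ATP-Mg and phosphate exchangers fill or empty the mitochondrial nucleotide pool in response to calcium. SLC25A24 had medians of 14.3, 28.2 and 36.5 CPM and was called higher on Day 10 (log2 1.13 ± 0.28, adjusted p = 9.71e-04), but the call was lost on leaving out any 1 of 25 of the 30 embryos, with values from 1.05 to 1.17. SLC25A23, chosen after its values were seen, had 6.10, 8.54 and 10.1 CPM, 8.99, 14.0 and 19.2 CPM, and 17.6, 23.8 and 28.4 CPM on the 3 days. It was called over the whole span (2.90-fold, log2 1.54 ± 0.12, adjusted p = 2.59e-12) and in neither interval (0.78 ± 0.12, adjusted p = 3.89e-06, and 0.76 ± 0.12, adjusted p = 3.01e-06). SLC25A25 was not called.

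The carriers related to uncoupling proteins went different ways. SLC25A30 (KMCP1) fell from 397, 508 and 742 CPM on Day 8 through 204, 352 and 425 on Day 10 to 82.1, 107 and 153 on Day 12. The second step was 3.14-fold without overlap (log2 -1.65 ± 0.13, adjusted p = 4.83e-12), and the first was -0.66 ± 0.13 (adjusted p = 8.91e-05), which was not called. SLC25A27 (UCP4), chosen after its values were seen, had medians of 3.13, 5.36 and 10.5 CPM and was 3.18-fold higher on Day 12 than on Day 8 without overlap (adjusted p = 7.27e-14). Its second step, 0.99 ± 0.11 (adjusted p = 7.04e-09), was just under the threshold and crossed it, at no more than 1.03, without d10_f_315, d10_f_317, d10_m_333, d12_m_249 or d12_m_307.

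The uncoupling proteins themselves carry other symbols and were read from the list of partners. UCP2 rose 9.34-fold from Day 8 to Day 10 (log2 3.22 ± 0.48, adjusted p = 1.32e-06), from between 4.59 and 25.6 CPM to between 14.0 and 393 CPM. Its Day 10 embryos spanned more than those of either other day, with d10_f_433 lowest and d10_f_336 highest, and on Day 12 it ran from 93.2 to 395 CPM. UCP3 had medians of 0.0411, 0.244 and 2.31 CPM on the 3 days, with 3 counts or fewer in 9 of 10 embryos on Day 8 and 5 of 10 on Day 10. It rose 7.50-fold in the second interval (log2 2.91 ± 0.53, adjusted p = 2.03e-05). That call was lost in female embryos only (2.41), where the adjusted p missed its threshold. The outer membrane channel VDAC2 fell 2.42-fold over the whole span (log2 -1.28 ± 0.11, adjusted p = 8.07e-12), with medians of 1312, 935 and 552 CPM, while VDAC1 and VDAC3 were not called.

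Carriers without a settled substrate gave the largest fall of the family between neighbouring days. SLC25A43 (chromosome X, 97868804 to 97906771) had 77.1, 98.0 and 116 CPM on Day 8, 116, 147 and 201 on Day 10 and 16.8, 27.6 and 58.3 on Day 12. The highest Day 12 embryo lay under the lowest of both earlier days, and the fall was 4.74-fold (log2 -2.25 ± 0.16, adjusted p = 1.28e-13). AKAP17B shares 4862 bases with its span. SLC25A35 had medians of 0.887, 2.41 and 0.736 CPM, rose 2.42-fold (log2 1.27 ± 0.24, adjusted p = 4.11e-05) and fell 2.88-fold (log2 -1.53 ± 0.24, adjusted p = 2.75e-06), with overlap. It was left out by the filter on Day 12, so its fall was favoured in advance. SLC25A47 (a carrier known from hepatocytes) went from a median of 0.924 CPM on Day 8 to 0.151 on Day 10, where 6 of 10 embryos had 3 counts or fewer. The authors' filter kept it through Day 8 alone, so that a lower level later was favoured in advance. It was called lower (log2 -1.99 ± 0.47, adjusted p = 6.13e-04), and the call was lost without any 1 of 13 embryos, with values from -2.01 to -1.88.

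**Figure D3:**
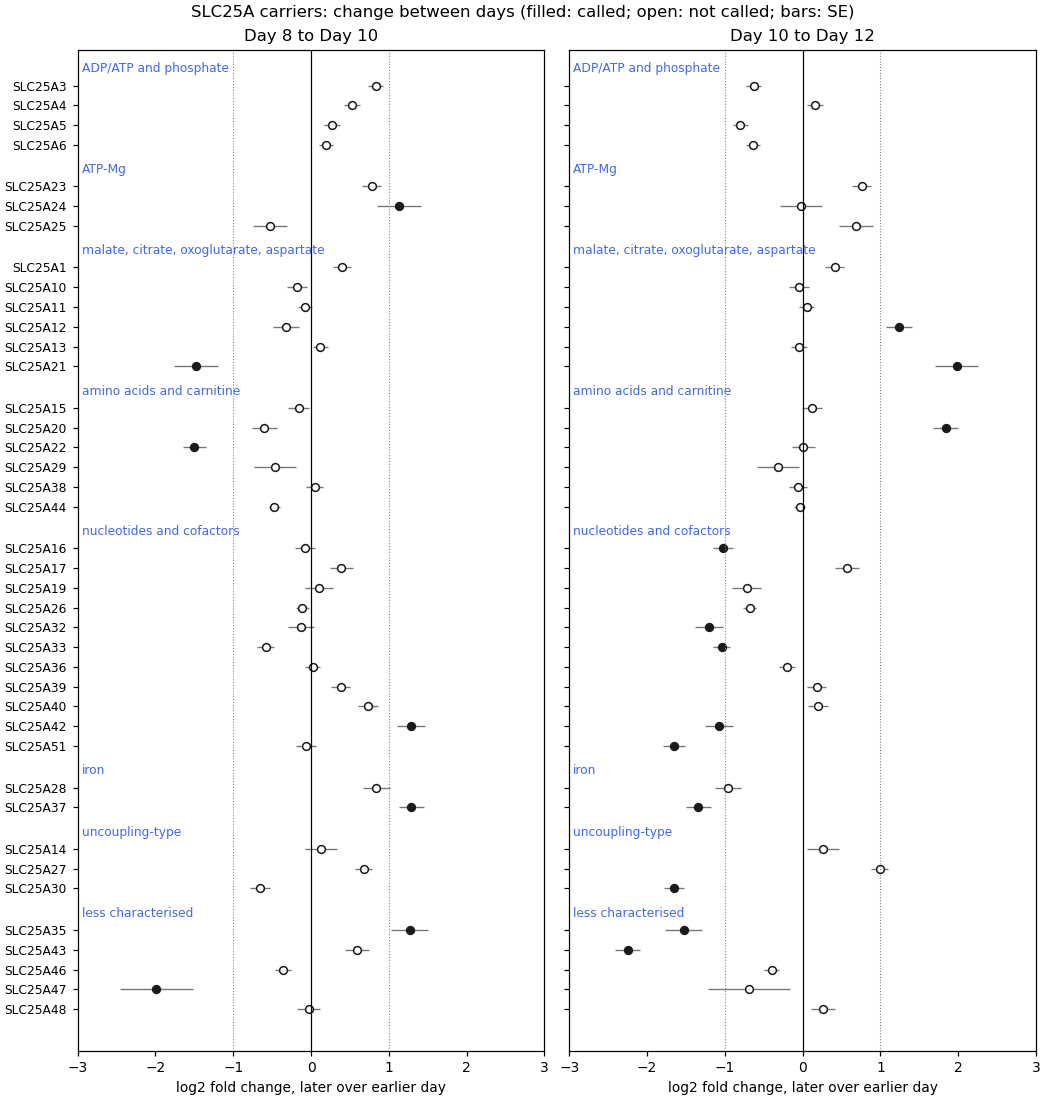
Log2 fold change of the 40 SLC25A genes from Day 8 to Day 10 (left) and from Day 10 to Day 12 (right), grouped by textbook substrate, later day over earlier day on the horizontal axis. Points are estimates with their SE as bars, filled points were called and open points were not, and dotted lines mark a log2 fold change of 1 in either direction. Filled points number 7 on the left and 12 on the right, 5 of them among nucleotide and cofactor carriers.

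**Figure D4:**
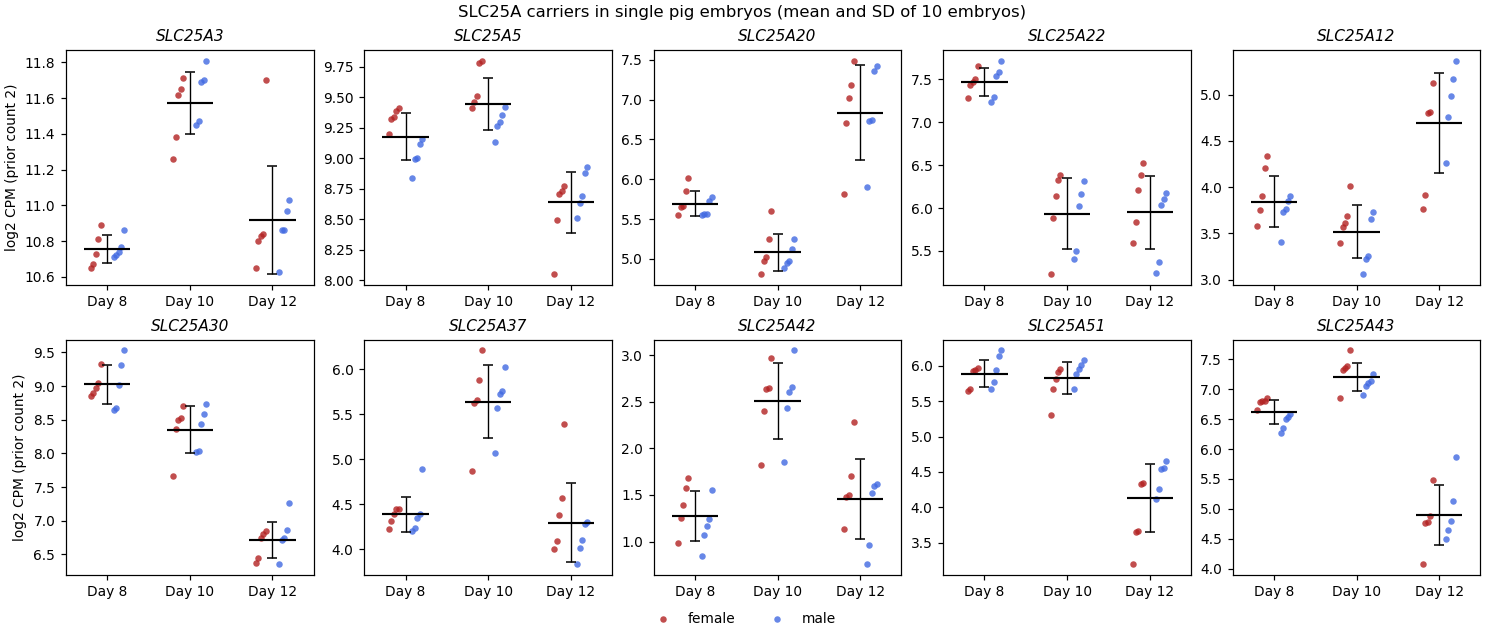
Level of 10 SLC25A carriers in each embryo by day, as log2 CPM with a prior count of 2 on the vertical axis (a log axis). Red points are female and blue points male embryos, and black lines give the mean and SD of 10 embryos. SLC25A22 drops after Day 8, SLC25A20 and SLC25A12 are highest on Day 12, and SLC25A30, SLC25A51 and SLC25A43 are lowest there.

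Embryos of one day differed more from each other as the days passed. Over the 64 genes the median SD of log2 CPM was 0.24 on Day 8, 0.31 on Day 10 and 0.47 on Day 12, close to the 0.23, 0.29 and 0.45 of all genes. The largest SD on Day 10 was that of SLC16A6.

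On Day 10 the embryos d10_f_454 and d10_m_453 held the 2 highest values of 12 of the 64 genes and the 2 lowest of 8. The former include SLC2A5 at 558 and 493 CPM and SLC2A8 at 151 and 152 CPM. The embryos d10_f_433 and d10_m_435 held the 2 lowest values of 18 genes and the 2 highest of 5. In SLC2A5 d10_m_435 stood at 314 CPM and d10_f_433 lower still, against 365 to 418 in the other 6 embryos, and in SLC16A1 they were 87.9 and 104 CPM, against 167 or more in every other one. SLC25A20 ran the other way, with d10_f_433 highest. The trophectoderm marker CYP19A1, the aromatase gene, was 179.9 and 298 CPM in d10_f_433 and d10_m_435 and between 1207 and 4009.8 CPM in the other 8. Both pairs were picked after these values were seen, and the part of the marker in the carrier levels was not tested.

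Female and male embryos were compared within each day, in the table and scaling of that day. None of the 64 genes was called at an adjusted p under 0.05 by the quasi-likelihood test, among 59 tested on Day 8 (background 0.658%), 58 on Day 10 (background 0.223%) and 62 on Day 12 (background 0.123%). At an unadjusted p under 0.05 there were 5 on Day 8 (8.47%, all genes 4.59%), 2 on Day 10 (3.45%, all genes 2.36%) and 14 on Day 12. The 14 make 22.6% of those tested, against 22.7% of all genes on that day. The robust GLM of edgeR called SLC25A5 and SLC25A43 on Day 8 (background 1.37%) and SLC16A3 and SLC2A2 on Day 12 (background 0.827%). DESeq2 called the same pair on Day 8 (background 1.13%) and SLC2A4RG, which is no carrier, on Day 12 (background 1.63%).

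SLC25A6 has no chromosome assigned in the gene annotation used here. The 3 carriers placed on the X chromosome are SLC25A5, SLC25A43 and SLC25A14, and on Day 8 each was higher in all 5 female embryos than in any male embryo. With SLC2A2 on chromosome 13, which also did not overlap on that day, they make 4 of 59 genes (background 1.59%). SLC25A5 was at 606, 667, 701, 710.5 and 676 CPM in the female embryos and at 479.6, 591, 582, 529 and 530.0 CPM in the male embryos. The means were 672 ± 40.7 and 542 ± 45.3 (SD, n = 5 each), and the log2 difference was 0.31 ± 0.07 (edgeR quasi-likelihood, adjusted p = 0.103). It was called with the robust GLM (adjusted p = 0.00780) and with DESeq2 (adjusted p = 0.00598).

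On the X chromosome 12523 bases separate SLC25A43 from SLC25A5. On Day 8 it was at 116, 104, 116, 115 and 121.3 CPM in female embryos and at 95.4, 95.9, 80.5, 98.9 and 85.0 CPM in male embryos. The log2 difference was 0.33 ± 0.07 (edgeR quasi-likelihood, adjusted p = 0.0906), called with the robust GLM (adjusted p = 0.0191) and DESeq2 (adjusted p = 0.00528). SLC25A14 (BMCP1, related to uncoupling proteins) differed by 0.66 ± 0.21 (edgeR quasi-likelihood, unadjusted p = 0.00900, not called), from means of 2.31 and 1.45 CPM.

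On Day 10 the difference of SLC25A5 was 0.30 ± 0.10 (unadjusted p = 0.0125 from the edgeR fit, not called) and that of SLC25A43 0.24 ± 0.13, and 0 of 58 genes were without overlap (background 0.848%). On Day 12 they were -0.13 ± 0.15 and -0.18 ± 0.30, and female and male embryos overlapped in all 3 X-linked carriers. A test of the change itself gave, for SLC25A5 from Day 8 to Day 12, a log2 difference of -0.47 (edgeR quasi-likelihood, unadjusted p = 0.00763, adjusted p = 0.132). That test includes d12_f_245, the lowest Day 12 embryo for SLC25A5, and was not rerun without it. By the quasi-likelihood test none of the 64 genes was called for a sex difference that changed between days (background 0%), with 0, 11 and 10 genes at an unadjusted p under 0.05 in the 3 comparisons of days. The share of all genes at that unadjusted p is not given here, so these counts are no result about the carriers. DESeq2 called the regulator SLC2A4RG (log2 1.44 from Day 8 to Day 12, adjusted p = 0.0296) and no carrier among those to which it gave an adjusted p. From Day 8 to Day 12 it gave none to SLC2A11, SLC5A8, SLC16A3, SLC16A8, SLC25A14, SLC25A21, SLC25A35 and SLC25A47, which therefore could not be called. The share of all genes that DESeq2 called for such a change is not given here.

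**Figure D5:**
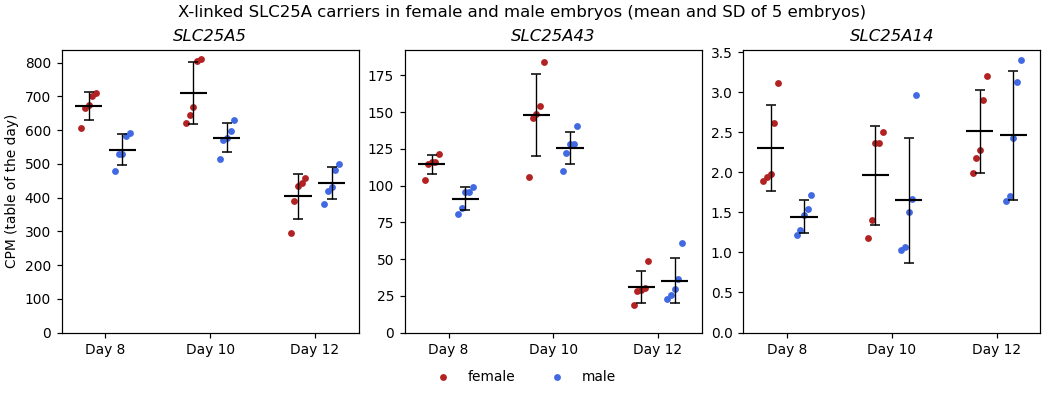
CPM of the 3 X-linked carriers in female (red) and male (blue) embryos on Days 8, 10 and 12, scaled within the table of each day, with the mean and SD of 5 embryos in black. On Day 8 the female embryos lie above the male embryos in all 3 panels, and on Day 12 they overlap.

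On Day 12, 3 of the carriers and SLC2A4RG, or 4 of 62 genes, did not overlap between the sexes (background 4.62%), and these were chosen for that. SLC2A4RG (female over male 1.11 ± 0.31, adjusted p = 0.198) and SLC25A23 (0.31 ± 0.13, adjusted p = 0.203) were higher in female embryos by their values, and SLC25A16 (-0.66 ± 0.22, adjusted p = 0.198) and SLC5A1 (-0.51 ± 0.23, adjusted p = 0.213) lower. DESeq2 called SLC2A4RG (1.12, adjusted p = 0.0401; background 1.63%), and 1 fit of all 30 embryos called it (1.07, adjusted p = 0.00856) and SLC25A16 (-0.68, adjusted p = 0.00841). That fit called 8 of the 64 genes and 20.3% of all genes on Day 12. SLC16A3 had the widest difference among carriers with an unadjusted p under 0.05, with a mean of 1.83 ± 1.23 CPM for females and 0.406 ± 0.259 CPM for males (SD, n = 5 each, log2 2.16 ± 0.57, adjusted p = 0.198).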

How the data were processed

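Reads of 30 embryos were 100-bp single-end reads of stranded mRNA libraries. The authors trimmed them with Trim Galore, removed 3 bases at the 5′ end, and used Sus scrofa 11.1 with its NCBI annotation; the aligner, the counter and its strand setting are not given in the sources used here. As deposited, the 4 tables hold whole, unnormalized read counts per gene, 1 table for all embryos and 1 for each day, which the authors had filtered on low CPM. All 13103 gene IDs matched a symbol. Of the 64 genes, 24 overlapped the span of another annotated gene, 13 of them that of a gene among the 13103.

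Days were compared in 1 fit of 3 groups, and sexes within the table of each day, with edgeR's quasi-likelihood F test (robust, TMM factors, edgeR 4.0.16, limma 3.58.1, R 4.3.3) and Benjamini-Hochberg adjustment over all genes. This took the place of the robust GLM of the study, which was run as an alternative. A call needed an adjusted p under 0.001 and a log2 fold change beyond 1 between days, and an adjusted p under 0.05 between sexes. SE is the log2 fold change divided by the square root of F. Levels are TMM-scaled CPM, with a prior count of 2 on the log2 scale, and 3 counts per library served as the floor, which covers counting error only. The fit was tested on simulated data.

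Named are all called SLC2A, SLC5A and SLC16A genes, up to 6 SLC25A genes per interval and direction, 10 carriers fixed by name, X-linked carriers and called partners; the remaining names, among them SLC25A16, SLC25A33 and the carriers without a call, were chosen after their values were seen. Members and lists were chosen with earlier results of these data known. Alternatives were DESeq2 1.42.0, RLE factors, library size alone, a filter of 10 counts in 5 embryos, sex as a term, single sexes, only the days compared, a fold threshold of log2 1 inside the test, and each embryo left out. Tables and figures used Python 3.11.15, numpy 2.4.6, pandas 2.3.3 and matplotlib 3.10.9.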

Additional observations from a re-analysis of the deposited data

Results flagged for a closer look

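Among 117 groups of 10 embryos checked, 9 had a highest or lowest embryo set apart by a wide gap, and chance flags about 1 in 20 groups. The smallest library, d12_f_245, was that embryo for 4 carriers on Day 12. It was lowest for SLC16A10 at 50.1 CPM (others 85.7 to 141), for SLC16A9 at 141 CPM (others 281 to 438) and for SLC25A5 at 266 CPM (others 359 to 489), and highest for SLC25A37 at 42.0 CPM (others 14.2 to 23.7). Its depth and low correlation with its day are given above, and their part in these values was not tested.

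On Day 8 d08_m_103 was highest for SLC25A37 at 29.6 CPM (others 18.2 to 21.8) and for SLC2A13 at 67.7 CPM (others 38.5 to 50.4). SLC25A3 stood at 3325 CPM in d12_f_271 (others 1588 to 2094), and SLC25A51 at 39.5 CPM in d10_f_454 (others 50.9 to 67.8). The SLC5A8 value of 0.0309 CPM in d08_f_124 is 1 count, against 0 in the other 9 embryos of Day 8.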

How the results depend on the processing

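DESeq2, RLE factors, the filter of 10 counts and sex as a term lost no call among the carriers and partners followed, while library size alone lost 4, the robust GLM 3, the fit of only the 2 days 1, female embryos only 25 and male embryos only 22, the last 2 with fewer embryos by construction. Tested against a log2 fold change of 1, 37 calls were lost: 5 carriers were higher and 0 lower from Day 8 to Day 10, 5 higher and 7 lower from Day 10 to Day 12, and 6 lower from Day 8 to Day 12. Over all 13103 genes that test called 513 higher and 162 lower, 984 higher and 590 lower, and 669 lower. In female embryos only, 5 carriers were higher and 1 lower from Day 8 to Day 10 (all genes 718 and 259) and 6 higher from Day 10 to Day 12 (all genes 1263). In male embryos only, 1 carrier was lower from Day 8 to Day 10 (all genes 316) and 5 were higher from Day 10 to Day 12 (all genes 1169). Between the sexes the robust GLM called 2 genes on Day 8 and 2 on Day 12, DESeq2 2 and 1, and 1 fit of all 30 embryos 8 on Day 12, where it called 20.3% of all genes, and DESeq2 called 1 change of a sex difference. With each embryo left out in turn the calls were 10 to 11 higher and 3 to 4 lower, then 9 to 11 and 14 to 16, over the whole span 11 to 15 and 10 to 11, and 0 between sexes. The calls over all genes in these fits are not given here, so the ranges show only how far the counts moved.

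Signs turned in values that were not called. From Day 10 to Day 12, library size alone gave SLC16A10 0.05, SLC16A9 0.12 and SLC25A24 0.21. The robust GLM gave SLC25A22 -0.01, SLC25A24 0.08 and SLC16A6 0.63, and the fit of only the 2 days SLC25A22 -0.00. Male embryos gave SLC25A22 -0.08 and SLC25A24 0.19, and female embryos SLC2A1 -0.07. From Day 8 to Day 10, SLC16A8 was -0.11 with library size alone and -0.40 in male embryos. The sex difference of SLC25A14 on Day 12 was -0.02 in 1 fit of all embryos. Leaving out 1 embryo gave -0.10 to 0.30 for SLC16A8, -0.12 to 0.01 for SLC16A9, -0.06 to 0.08 for SLC25A22, -0.10 to 0.12 for SLC25A24, -0.03 to 0.10 for SLC2A1 and -0.68 to 0.07 for SLC16A6. For the sex difference on Day 12 it gave -0.10 to 0.16 for SLC25A14 and -0.40 to 0.11 for SLC25A43. The cause of these changes was not tested. Carriers at or near 3 counts, such as SLC16A3, SLC16A8, SLC5A8 and SLC25A47, and the partner UCP3 are limited by depth. No paired analysis was possible because the labels tie no embryo of one group to an embryo of another.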
